A study of Mus musculus with 5 samples.

Results

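Stable genic distal sites are stretches of open chromatin in naïve CD8+ T cells that lie inside genes, away from every annotated transcript start, and that held a similar rank in cells with and without Tcf1 and Lef1. A peak of the WT list on an autosome was taken where it overlapped a peak of the dKO list by at least 1 bp, where its summit lay over 1000 bp from every annotated transcript start and inside a gene body (mm9), and where the pileup percentiles of the pair differed by under 20 points. The pileup is the number of sequenced fragments over a summit, and its percentile is the rank of the peak by pileup within its own full list, from 0 to 100. If several dKO peaks overlapped, that of highest pileup was the partner. Of 31116 WT peaks, 4267 met the rule (13.7%, 95% Wilson interval 13.3% to 14.1%). Pileup in both genotypes chose these members, so that their strength in WT and dKO, and every measure from the same peak calls, is given as a description.

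DNase-seq sequences the short fragments that DNase I cuts out of accessible chromatin. The study asked how the transcription factors Tcf1, encoded by Tcf7, and Lef1 shape the chromatin of mature CD8+ T cells. The authors pooled 3 WT and 2 dKO replicates before peak calling, so each genotype is 1 list here. These lists hold no spread between replicates and allow no test between genotypes. The study itself also counted reads in each library and tested its sites with edgeR, but no values per replicate were used here. The WT list rests on 83923734 fragments and the dKO list, of 25525 peaks, on 62242963.

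WT mice carried the hCD2-Cre transgene and the Rosa26 GFP reporter with intact Tcf7 and Lef1 (Tcf7 +/+ Lef1 +/+). The dKO mice carried the same transgene and reporter with floxed alleles of both genes (Tcf7 fl/fl Lef1 fl/fl), and their cells are labelled Tcf1-/-Lef1-/-. Young adult animals of both sexes on a C57BL/6 background were used. Cre from the hCD2 transgene acts mainly after T cells have matured, and deletion is incomplete, so some cells of a dKO mouse keep their alleles. GFP from the reporter shows past Cre activity in a cell. Splenic CD8+ cells with GFP, TCRβ, low to intermediate CD44 and an otherwise naïve surface phenotype were sorted from both groups.

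The labelled cell type was compared with promoter peaks. Of 9 genes that mark CD8 T cells, 8 showed a promoter peak (within 1 kb of a transcript start) in WT and 7 in dKO. Thy1 had none in either list and Cd3d none in the dKO list. The highest were Cd8b1 with 88 fragments in WT and Cd247 with 245 in dKO, and the pileups over the 9 genes summed to 531 and 484. The sum in dKO rested largely on Cd247, which had 84 fragments in WT, and each of the other 7 genes with a WT peak had fewer fragments in dKO, before scaling to depth. Neither list held a promoter peak for the B cell genes Cd79a, Cd79b, Ms4a1, Pax5 and Ebf1, any of 3 erythroid genes, Cd4 or Zbtb7b. Of 5 myeloid genes, Itgam had 36 fragments in WT and Spi1 had 24 in dKO, and of 3 NK cell genes Nkg7, which CD8 T cells can also express, had 67 and 79. No promoter peak of Tcf7 was found in either list, and that of Lef1 reached 60 fragments in WT and 37 in dKO. Since the place of the excised exons is not given in the sources used here, these values do not check the genotypes.

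Accessible sites in gene bodies include enhancers, silencers and boundary elements, and introns hold many of the enhancers of T cell genes. Tcf1 and Lef1 bind DNA through a high mobility group domain, whereas Ets1 and its relatives bind through the ETS domain and Runx1 and Runx3 through the Runt domain. CTCF is a zinc finger protein found with cohesin at the base of chromatin loops.

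The sequences of 6 members are shown because each holds one of the motifs whose shares are described further on. They span 50 bp to either side of the WT summit on the plus strand of mm9 (NCBIM37), 5′ to 3′, and capitals mark the motif match, on whichever strand it lies. The first is the intronic site of Prdm1. For each of the other motifs, the site of highest mean percentile was taken among members in genes of the T cell lists with a match within 20 bp of the summit.
Prdm1 (Tcf/Lef), chr10:44168087-44168187: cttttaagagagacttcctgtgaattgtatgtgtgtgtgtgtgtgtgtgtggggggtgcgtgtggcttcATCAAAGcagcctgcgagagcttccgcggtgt
Itpr1 (ETS), chr6:108487044-108487144: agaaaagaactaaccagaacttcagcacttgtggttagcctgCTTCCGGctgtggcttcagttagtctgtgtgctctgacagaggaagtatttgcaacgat
Ikzf1 (RUNX), chr11:11666226-11666326: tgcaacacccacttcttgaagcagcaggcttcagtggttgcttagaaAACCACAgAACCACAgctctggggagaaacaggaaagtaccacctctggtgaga
Ubash3b (CTCF), chr9:40881723-40881823: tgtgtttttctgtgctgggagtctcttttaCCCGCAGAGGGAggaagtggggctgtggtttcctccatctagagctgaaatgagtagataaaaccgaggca
Il6ra (AP-1), chr3:89676251-89676351: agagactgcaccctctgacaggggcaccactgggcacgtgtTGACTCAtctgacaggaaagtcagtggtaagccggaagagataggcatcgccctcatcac
Il2ra (E-box), chr2:11575160-11575260: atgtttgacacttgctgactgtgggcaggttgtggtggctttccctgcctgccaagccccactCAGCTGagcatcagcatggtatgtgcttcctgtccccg

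Prdm1 encodes Blimp-1, a repressor that drives effector differentiation. Its member, chr10:44168047-44168318 in intron 4 of the transcript Prdm1-001, had 141 WT and 103 dKO fragments and ranked at percentiles 94.8 and 95.3. Scaled to the fragments of each pool, the ratio of dKO to WT pileup was 0.985, with an exact counting interval of 0.756 to 1.28. The window held ATCAAAG, the Tcf/Lef core, at 44168156 to 44168162. The only other genic distal peak of Prdm1, chr10:44202932-44203192, lay inside the annotated gene body but 24.6 kb upstream of the start of Prdm1-001, and was not a member: 79 WT fragments faced 19 in dKO, and the percentiles were 72.1 and 5.45. Its ratio was 0.324 (0.186 to 0.540), and the core was not in its window. Only these exact letters were searched, so their absence does not mean that Tcf1 does not bind there. The paper reports high-confidence Tcf1 binding both upstream of Prdm1 and in an intron. A match is a description, not a site or a cause.

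The other printed windows lie in genes of T cell signalling and identity. Itpr1, a calcium channel of the endoplasmic reticulum that opens after TCR signalling, had 107 WT and 100 dKO fragments in intron 60. The Ikzf1 member, in the gene of the lymphoid factor Ikaros, had 144 and 116 and held 2 RUNX matches 1 base apart. Ubash3b, a phosphatase that dampens TCR signalling, had 135 and 120 at a CTCF match in intron 1. Il6ra, the IL-6 receptor, had 110 and 56 in intron 9 and Il2ra, the alpha chain of the IL-2 receptor, 153 and 94 in intron 1. None of the 6 windows had a near copy, meaning a match elsewhere in the assembly of at least 90% identity over 80% of the 201 bp around the summit.

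Members lay near the middle of both lists. The median pileup was 57 fragments in WT (56 to 58, quartiles 39 and 81) and 43 in dKO (42 to 43, quartiles 31 and 58). The median WT percentile was 53.4, that of the dKO partners 51.7, and the median difference, dKO minus WT, was -1.55 points (-2.02 to -1.08). With the 20000 peaks of lowest p in each list the median difference had the opposite sign, at 0.974 points (0.440 to 1.51), so its direction depends on which peaks are ranked. Intervals of medians are order-statistic intervals over sites, and all intervals cover counting error only. The median member was 193 bp wide in WT and 181 bp in dKO, with a fold enrichment over local background of 8.18 and 8.30. Stable promoter sites, chosen by the same limit within 1000 bp of a start, had a median of 92 WT fragments, and stable intergenic distal sites, 60.

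Among all 21235 autosomal pairs, 79.1% differed by under 20 points. The share was 75.6% of the 5644 genic distal pairs (74.5% to 76.7%), 77.1% of intergenic distal pairs and 82.4% of promoter pairs. Since the rule used this contrast, nothing is read from these shares. A further 3708 genic distal WT peaks had no dKO partner, and members were 45.6% of the 9352 genic distal WT peaks.

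**Figure D1:**
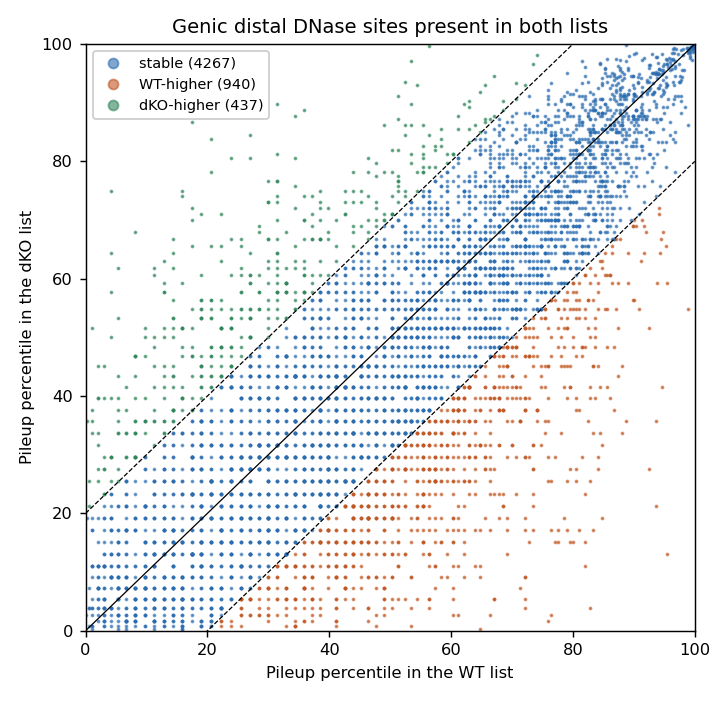
Pileup percentile in the WT list (x axis) against that in the dKO list (y axis) for the 5644 genic distal pairs, 1 point a pair. Dashed lines mark the limit of 20 points, with 4267 stable sites between them, 940 WT-higher sites below and 437 dKO-higher sites above.

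Scaled to the fragments kept in each pool, the median log2 ratio of dKO to WT was 0.00 in members (-0.01 to 0.02, quartiles -0.19 and 0.22) and -0.13 over all autosomal pairs. It was -0.12 in members with the 20000 peaks of lowest p in each list. In members at WT percentiles from 0 to 25, 25 to 50, 50 to 75 and above 75, the median was 0.158, 0.0557, -0.0295 and -0.112. The median of 0.00 thus did not hold at every strength. WT pileup formed these groups and also enters the ratio, and the cause of the order was not tested. A difference of at most 1.5-fold was found in 98.3% of members and 85.1% of all pairs. The limit of 20 points thus kept few pairs that differed more. At least 2-fold lower pileup in dKO was found in 0 members and 1.46% of all pairs, and at least 2-fold higher pileup in 2 members and 1.21% of all pairs. The pair, named after their values were seen, were a coding exon site of Aldoa, a glycolytic enzyme, with 115 and 576 fragments and 6 near copies, and an intronic site of Stambpl1, a deubiquitinase, with 17 and 26.

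The sites nearest to the limit varied in pileup. Just inside it, ranked higher in dKO, were intronic sites of Rere with 53 WT and 56 dKO fragments, Spink13 with 68 and 74 and Cdh10 with 38 and 41. Just outside were sites of Gon4l with 23 and 29, Dnm3 with 77 and 87 and Pcyox1l with 39 and 42. The counting interval of the depth-scaled ratio lay above 1 at the Spink13 site, inside the limit (1.47, 1.04 to 2.07). It also lay above 1 at the Dnm3 site, outside the limit, where the ratio was 1.52. At the other sites named so far it included 1. The differences were 19.98, 19.98 and 19.92 points inside and 20.05, 20.05 and 20.06 outside. On the other side, Rras2 with 44 and 25, Stk4 with 41 and 23 and a UTR exon site of Erg with 41 and 23 were inside at -19.95, -19.93 and -19.93 points. Cdyl2 with 120 and 57, Tle3 with 36 and 19 and Soat1 with 36 and 19 were outside at -20.04, -20.06 and -20.06. At the Cdyl2 site the interval lay below 1 (0.64, 0.459 to 0.885).

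Summits lay close together in the genotypes. The median distance from WT to dKO summit was 10 bp, and 72.4% of members had both summits within 20 bp (71.0% to 73.7%) and 86.9% within 50 bp. The share within 20 bp was 74.6% in stable intergenic distal sites and 71.6% in stable promoters. Overlap was part of the rule and limits these distances. More than 1 dKO peak overlapped 34 members.

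Introns held 3900 members (91.4%, 90.5% to 92.2%), UTR exons 159, coding exons 122 and non-coding exons 86. Introns make up 93.6% of gene body bases over 1000 bp from a start, above the interval of the members. The other genic distal WT peaks had 91.2% in introns (90.3% to 91.9%), and the intervals of both groups of peaks overlapped. Host genes were protein-coding for 3974 members, lincRNA genes for 156, processed transcripts for 126 and pseudogenes for 11.

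In introns of protein-coding host genes, 35.1% of members (33.5% to 36.7%) lay in a first intron, against 25.7% of intron bases. The share in the other genic distal WT peaks was 34.2% (32.8% to 35.7%), so first introns were as frequent there within counting error. The median member lay 9607 bp from the nearest start, with 1343 within 5 kb and 356 over 50 kb away.

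Another WT peak lay within 10 kb of 64.8% of members (63.4% to 66.2%), 63.1% of stable intergenic distal sites (61.7% to 64.5%) and 61.2% of stable promoters (60.1% to 62.3%), so that neighbours were not particular to members. Another member lay within 10 kb of 33.0%. A WT-only peak lay within 10 kb of 30.2% of members (28.8% to 31.6%), 26.8% of stable intergenic sites (25.5% to 28.1%) and 24.6% of stable promoters (23.6% to 25.5%). Stable and WT-only sites thus also occurred side by side.

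Motif letters were searched on both strands in 201 bp around the WT summit and in windows of the same length 1000 bp to either side, which are called flanks. ETS was searched as CNGGAAG, RUNX as TGTGGTT, Tcf/Lef as ATCAAAG, AP-1 as TGANTCA, E-box as CAGCTG, GC-box as GGGCGG, PU.1 as GAGGAAGT, KLF as GGGTGTG, IRF as GAAANTGAA and GATA as AGATAAG, and CTCF by its core consensus. KLF and RUNX letters can share bases. The rule did not use sequence.

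ETS letters were in 34.0% of members (32.6% to 35.4%), 15.3% of flanks and 32.3% of all WT peaks. RUNX letters were in 14.8% (13.8% to 15.9%), 5.52% of flanks and 9.72% of all WT peaks. CTCF matches were in 13.8% (12.8% to 14.8%), 0.516% of flanks and 10.2% of all WT peaks. These motifs were thus more frequent at members than in their flanks beyond counting error. Stable intergenic distal sites had ETS letters in 30.6% (29.2% to 31.9%), RUNX letters in 12.8% (11.8% to 13.8%) and CTCF matches in 17.3% (16.2% to 18.5%), and stable promoters in 35.8%, 3.69% and 4.35%. CTCF matches were thus less frequent in members than in stable intergenic distal sites.

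The other motifs were compared with flanks and with all WT peaks. E-boxes, bound by E proteins, were in 14.3% of members, 10.3% of flanks and 12.6% of all WT peaks, and AP-1 letters in 8.34%, 5.74% and 6.22%. In the same order, PU.1 letters were in 5.58%, 1.49% and 4.21%, KLF letters in 7.15%, 4.34% and 6.68% and IRF letters in 2.84%, 1.80% and 2.1%. GC-boxes were in 9.51% of members, 3.78% of flanks, 27.5% of all WT peaks and 54.9% of stable promoters. GATA letters were in 2.30% of members (1.89% to 2.79%), 3.02% of flanks (2.68% to 3.41%) and 1.83% of all WT peaks. GC-boxes were thus more frequent than in flanks and less frequent than in all WT peaks. The base composition differed as well, with a median GC content of 49.8% in members, 46.3% in flanks and 61.7% in stable promoters.

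Tcf/Lef letters were in 115 members (2.70%, 2.25% to 3.23%), 3.42% of flanks (3.06% to 3.83%) and 3.88% of all WT peaks, and the intervals of members and flanks overlapped. The letters were in 8.19% of WT-higher genic distal sites (6.60% to 10.1%), 8.90% of WT-only ones (8.03% to 9.86%) and 1.83% of dKO-higher ones (0.930% to 3.57%). Stable intergenic distal sites had the letters in 3.18% (2.70% to 3.74%) and stable promoters in 1.52% (1.28% to 1.81%), so a low share was not particular to members. Of 530 genic distal WT peaks with the letters, 21.7% were members, whereas members were 45.6% of all genic distal WT peaks. RUNX letters were most frequent in dKO-higher genic distal sites at 27.0% (23.1% to 31.4%), where CTCF matches were in 5.03% (3.35% to 7.50%). ETS letters were in 36.6% of WT-higher, 33.4% of dKO-higher and 29.8% of WT-only sites (28.4% to 31.3%).

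**Figure D2:**
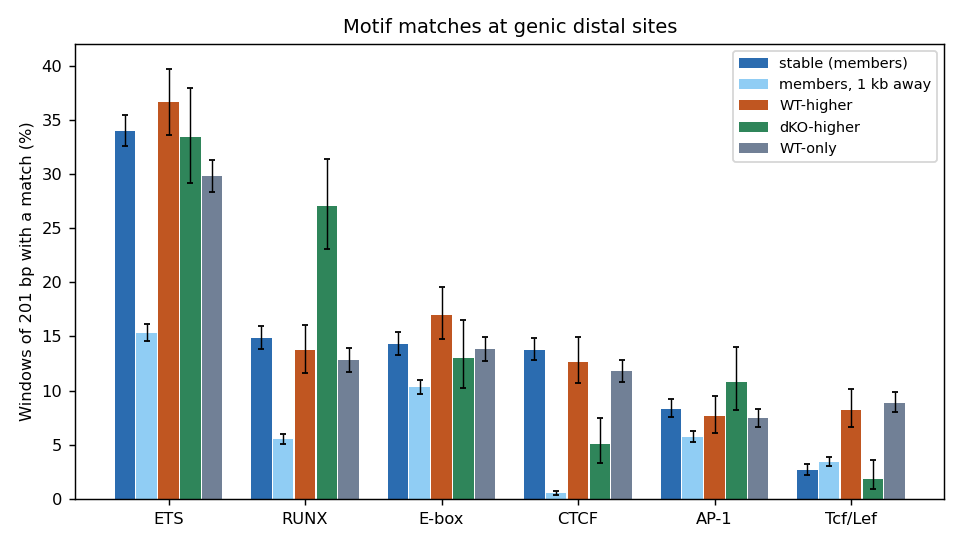
Share of 201 bp windows with a match (y axis, %) for 6 motifs, at genic distal sites of each class and in windows 1 kb from the members. Bars are shares and error bars 95% Wilson intervals over sites. Tcf/Lef letters are in 2.70% of members, 8.19% of WT-higher and 8.90% of WT-only sites.

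The place of the match differed between motifs. Of 606 CTCF matches in members, 85.1% had their centre within 20 bp of the WT summit (82.1% to 87.8%). The share was 35.5% of 688 RUNX matches, 31.4% of 1735 ETS matches, 24.1% of 667 E-boxes and 19.8% of 378 AP-1 matches. Of 117 Tcf/Lef matches, 14.5% lay so close (9.27% to 22.0%). Members with CTCF had a median width of 148.5 bp against 202 bp without, summits 7 bp apart against 11 bp and a median WT percentile of 61.2 against 51.4.

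**Figure D3:**
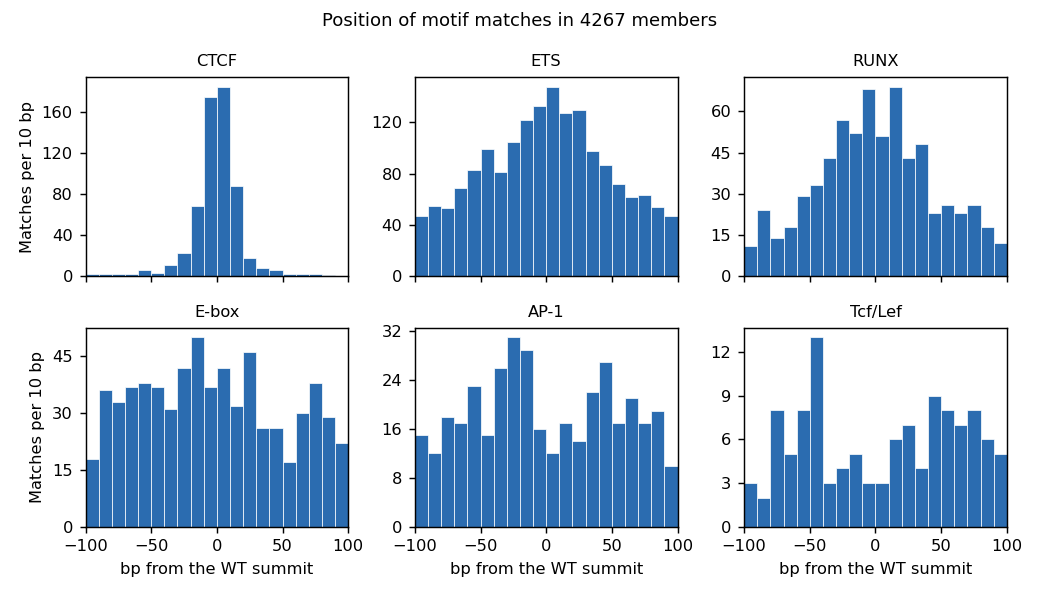
Number of motif matches in members per 10 bp (y axis) by distance of the match's centre from the WT summit in bp (x axis), for 6 motifs. Of CTCF matches 85.1% lie within 20 bp of the summit, and of Tcf/Lef matches 14.5%.

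Members were also grouped by WT percentile. From 0 to 25 there were 806, from 25 to 50 1147, from 50 to 75 1344 and above 75 970. CTCF matches were in 5.96%, 11.8%, 18.3% and 16.4% of these, in that order, and ETS letters in 35.2%, 35.7%, 32.2% and 33.4%. The CTCF share was lowest among weak members, whereas the ETS share varied little. A dKO partner was found for 34.4% of genic distal WT peaks below percentile 25 and 93.4% of those above 75, and the lists differed in depth.

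Members lay in 2683 genes, of which 1809 held 1 and 116 held 5 or more. Gm20388 held 45, 2610005L07Rik 28, AC152164.1 and Gm17279 26 each and Gm17317 25. Gm20388 is a gene model of 4435 kb, and 22 members lay in it alone. All members in the other 4 had near copies, and 2610005L07Rik, AC152164.1 and Gm17279 overlap on chromosome 8. Per 100 kb of gene body, in genes of at least 20 kb, Sfi1 had 35.7, Sp110 22.8, AC152164.1 20.3, Gm17279 20.3 and Gm15319 19.6. All 5 members of Sp110 and all 5 of Gm15319 had near copies, and Gm15319 lies within AC152164.1 and Gm17279. Sfi1, a centrosomal protein, held 22 members at WT percentiles from 96.6 to 99.9, of which 4 had near copies, beside 14 WT-only sites. Their fold enrichment over local background was from 1.53 to 2.84 in WT, below the median of 8.18 over all members.

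Among genes whose members had no near copy, a group formed after seeing the data, Prkch, Eif4e3, Wwox and Pde4d came after Gm20388 with 13 members each. Prkch encodes protein kinase C eta, and its members ranged from 21 to 124 WT fragments. Pde4d, a cAMP phosphodiesterase of 1505 kb, ranged from 20 to 204, and Wwox, an oxidoreductase gene of 913 kb, from 27 to 168. Eif4e3, of the cap-binding family, also held 18 WT-only sites.

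Genes of the T cell lists often held a member. They did so for 35 of 50 autosomal genes of the TCR complex and proximal signalling (70.0%, 56.2% to 80.9%), 26 of 38 of homing, adhesion and egress, 30 of 66 T lineage transcription factors, 16 of 40 of cytokine receptors, STAT and SOCS, and 10 of 28 of costimulation and inhibitory receptors. Over all 21281 autosomal protein-coding genes the share was 11.5% (11.0% to 11.9%). The TCR genes were also longer, with a median of 51.7 kb against 15.5 kb, and held 21.0 members per Mb of gene body against 4.10.

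Of the genic distal WT peaks in these genes, members were 47.5% in TCR genes, 43.8% in transcription factors, 49.4% in cytokine genes, 42.9% in costimulation genes, 57.4% in homing genes and 45.1% in all protein-coding genes. Sites of other states were numerous in the same genes, with 68 WT-only sites beside 87 members in TCR genes and 68 beside 85 in transcription factors. The median log2 ratio of members was -0.03 in TCR genes, 0.01 in transcription factors, 0.06 in cytokine genes, 0.04 in costimulation genes, -0.03 in homing genes and 0.00 in all protein-coding genes.

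**Figure D4:**
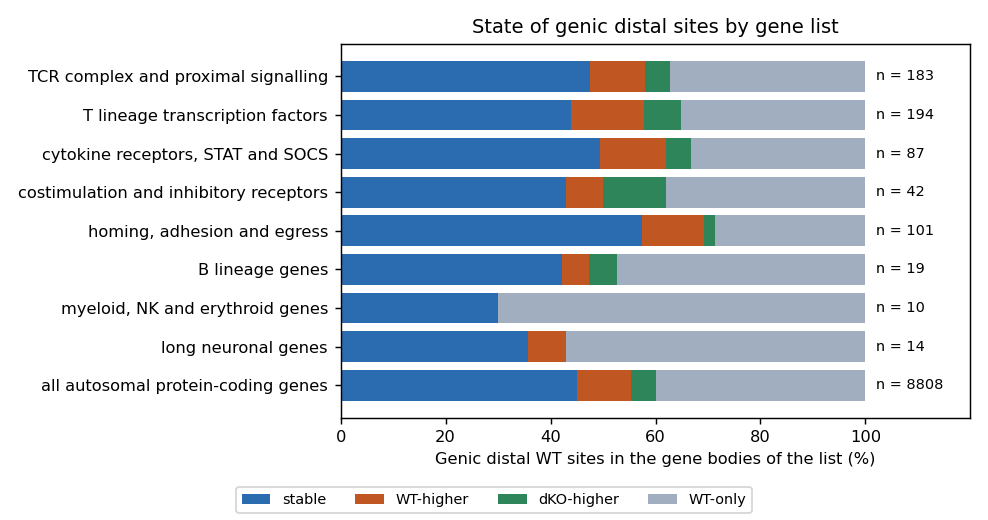
Genic distal WT sites in the gene bodies of each list by state (bars, % of sites), with the number of sites at the right. Stable sites are 57.4% in homing genes, 47.5% in TCR genes and 45.1% in all autosomal protein-coding genes.

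Genes of TCR signalling held up to 11 members. Itpkb, a kinase that shapes inositol signals in T cells, held 11, all in intron 2, and that of highest mean percentile, chr1:182320406-182320709, had 107 WT and 78 dKO fragments. Prkcq, protein kinase C theta of the immune synapse, held 8, and its site chr2:11210184-11210348 in intron 15 had 109 and 79 with a CTCF match. Both genes also held 2 WT-higher sites, and 3 and 4 WT-only ones. Cblb, a ubiquitin ligase that restrains TCR signals, held 5, and its site in intron 3 had 124 and 82 and none of the motifs. Itpr1 held 5 as well.

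Among transcription factors, Bach2, Bcl11b and Runx1 held 7 members each and Ets1 6. Bach2, a repressor that keeps lymphocytes in a resting state, also held 10 WT-only, 4 WT-higher and 1 dKO-higher site. Its site chr4:32430672-32431100 in intron 2 had 106 WT and 100 dKO fragments and Tcf/Lef letters. Bcl11b, needed for T cell identity, had 106 and 76 in intron 1 with RUNX and E-box letters. Runx1 had 88 and 57 in intron 2 and Ets1 121 and 79 in intron 3, both with ETS letters.

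Jak1, a kinase of cytokine receptors, held 8 members, and Tgfbr2, a TGF-β receptor, 7. The Jak1 site of highest mean percentile had 89 WT and 54 dKO fragments, a difference of -11.1 points, and that of Tgfbr2 had 59 and 56, a difference of 13.6. Smad3, which carries TGF-β signals to the nucleus, held 4, with 79 and 61 at the highest. Il2ra held 3, all in intron 1, and no other genic distal WT peak.

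Among costimulation and inhibitory receptors, Cd101 and Slamf6 held 3 members each and Cd28 and Tnfrsf1b 2. The Cd101 site of 76 WT and 49 dKO fragments in intron 8 held Tcf/Lef, ETS, RUNX, AP-1 and CTCF letters together. Slamf6, a receptor of the SLAM family, had 54 and 32 in intron 1, a difference of -18.6 points, Tnfrsf1b, a TNF receptor, 73 and 72, a difference of 14.8, and Cd28, the costimulatory receptor, 87 and 73. At each of these sites the counting interval of the depth-scaled ratio of dKO to WT included 1. The rule kept pairs of similar rank by the same pileups, so nothing is read from these intervals.

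Homing genes were led by Dock10, an exchange factor for small GTPases, with 6 members, of which that of highest mean percentile had 79 WT and 74 dKO fragments. Apbb1ip and Fyb, adaptors of integrin activation, held 5 each. The Apbb1ip site chr2:22639658-22640063 in intron 1 had 161 and 111 at percentiles 97.4 and 96.7. Fyb had 84 and 59 with a CTCF match, and Itga6, an integrin chain, held 4 and had 107 and 83.

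**Figure D5:**
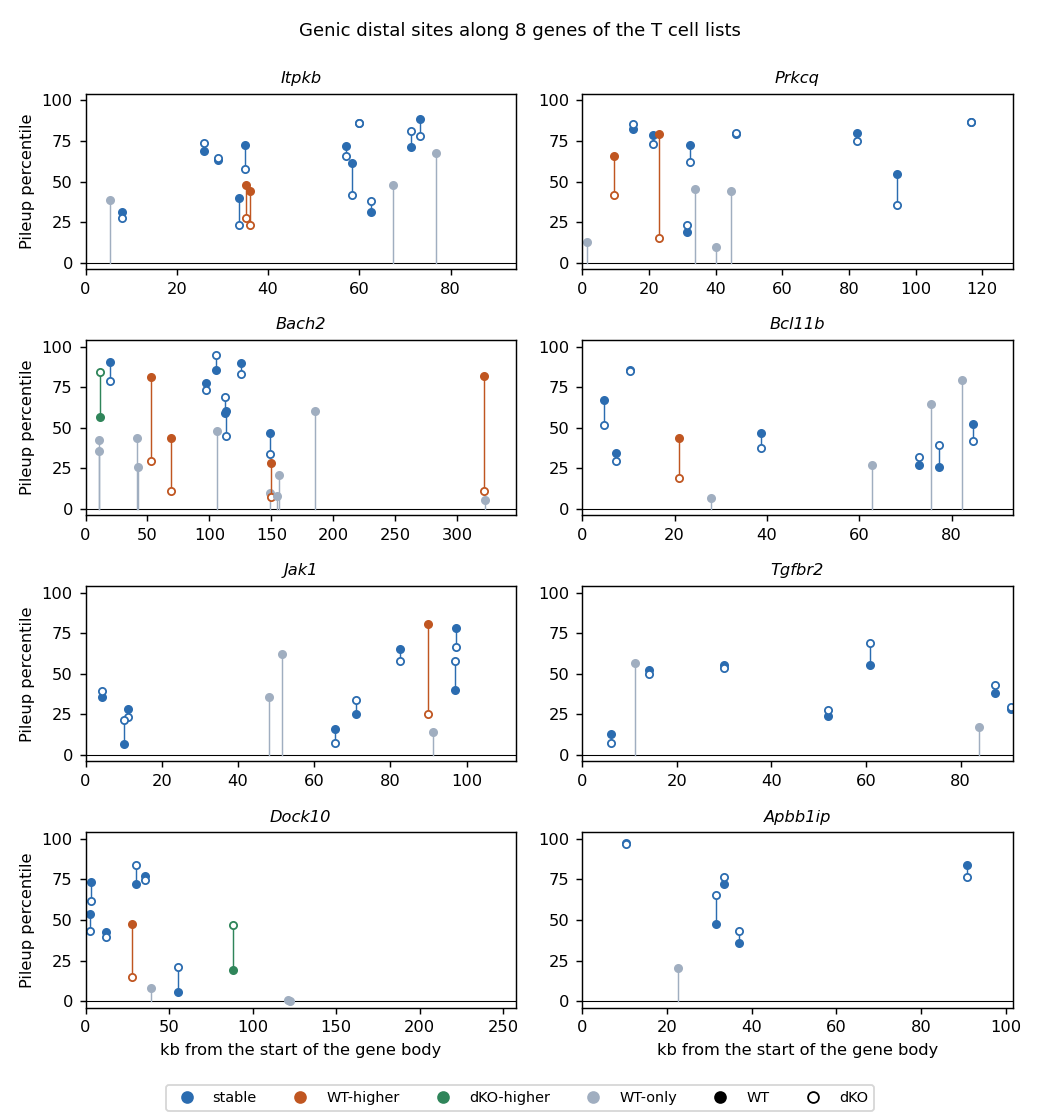
Genic distal sites along 8 genes, the leading pair of each of 4 T cell lists, by distance from the start of the gene body in kb (x axis) and pileup percentile (y axis). Filled circles are WT and open circles dKO, a line joins each pair, and WT-only sites have a line to 0. Bach2 holds 7 stable sites beside 10 WT-only ones.

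Lists of other lineages were read against all autosomal protein-coding genes, of which 11.5% held a member, at 4.10 members per Mb. Of 31 B lineage genes, 6 held 8 members (19.4%, 9.19% to 36.3%, and 4.36 per Mb), with Plcg2, a phospholipase of antigen receptor signalling, at 114 WT and 68 dKO fragments, Dntt, the terminal transferase of lymphoid progenitors, at 79 and 52, Ralgps2 at 49 and 40 and Lyn, a Src family kinase, at 52 and 36. The other B lineage genes with a member, named after their values were seen, were Ebf1, a B lineage transcription factor, at 50 and 33 and Cd74, the invariant chain of MHC class II, at 37 and 30. Of 36 myeloid, NK and erythroid genes, 3 held 1 each (8.33%, 2.88% to 21.8%, and 4.22 per Mb): Sfpi1, which encodes PU.1, had 82 and 58, Flt3, a receptor of progenitors, 51 and 33 and Fcgr3, an Fc receptor, 50 and 32. The share of genes in both lists did not differ from that of all genes beyond counting error. The 40 long neuronal genes span 45.3 Mb and held 5 members, 0.110 per Mb, in Lsamp with 94 and 91 at the highest, Galntl6 with 76 and 69, Nrxn3 with 78 and 64 and Magi2 with 58 and 42.

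Several of the 115 members with Tcf/Lef letters lay in genes of the T cell lists. Their share was not compared with that of all members, so no link between the letters and these genes is read. Beside Prdm1, Bach2 and Cd101, Stat5b, which carries IL-2 and IL-7 signals, had 103 WT and 55 dKO fragments, and the Fyb site in intron 1 had 82 and 55. Zap70, the kinase recruited to the activated TCR, had 46 and 47, and Tcf12, an E protein, 40 and 41. Foxp1, which keeps T cells quiescent, had 34 and 19 and Tgfbr3, a coreceptor, 29 and 16. Over all 115, the median difference, dKO minus WT, was -5.3 points and the median log2 ratio -0.092. The 4152 members without the letters had -1.5 points and 0.005. The rule used the same pileups, so this is a description.

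The 5 members of highest mean percentile all had near copies in the assembly. An intronic site of Chl1, chr6:103599085-103599286, had 3651 WT and 3383 dKO fragments and 4 near copies. The next 4 lay on chromosome 9, in Gm10722 with 1956 and 1821 and in Gm16869 with 1473 and 1303, 1008 and 949, and 567 and 521, with 78 to 149 near copies each. At these 5 sites the depth-scaled ratio of dKO to WT was from 1.19 to 1.27, and each counting interval lay above 1. The limit was set on rank, so it does not fix the ratio. These are pileups that the rule used, without spread between replicates, so nothing more is read from these intervals. Per the study's methods the authors kept uniquely mapped reads, and what near copies do to these pileups was not tested. Of the 20 members of highest mean percentile, 8 had a near copy, against 164 of all members (3.84%). Without near copies, a group again formed after seeing the data, the first by mean percentile were in Cdk5rap2, a centrosomal protein, with 480 and 397, Sfi1 with 403 and 294 and 2210408I21Rik with 246 and 264. The fold enrichment over local background was 45.6 in WT and 44.6 in dKO at the Cdk5rap2 site but 2.84 and 2.76 at that of Sfi1. The ratio at 2210408I21Rik was 1.45 (1.21 to 1.73). An intronic site of Camk1d, chosen by the same ranking, went the other way, with 385 and 231 and a ratio of 0.809 (0.684 to 0.955).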

How the data were processed

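Splenic naïve CD8+ T cells were assayed by DNase-seq (WT, 3 replicates; dKO, 2). Per the study's methods, the file headers and the submitters' processing notes, the authors checked reads with FastQC, aligned them to mm9 with Bowtie2 2.2.5, kept uniquely mapped reads, pooled replicates and called peaks with MACS2 2.1.1. Each header names a pair of BAM files of the same pool and keeps 0.5 of the fragments read. Whether both files held the same reads is not given in the sources used here, so the kept fragments used for scaling carry that doubt. The lists used here also hold peaks under the 4-fold enrichment that the study required, which 94.3% of members met in WT and 92.8% in both lists. As deposited, pileup is signal at the summit, unscaled. Fold enrichment, as the authors deposited it, is a ratio of pileup to local background. P-values and q-values were deposited as −log10. Peak width was deposited in bp.

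Pairs, percentiles, intervals and motif matches were computed in Python 3.11.15 (pandas 2.3.3, SciPy 1.17.1) and near copies with BLAST+ 2.17.0, after the steps were tested on simulated data. Genes came from GENCODE on NCBIM37. The members and lists were chosen with earlier results of these data known. Named genes were those with most members, in all, per 100 kb and in each list, with their site of highest mean percentile, the 5 highest members, those next to the limit, and Prdm1. Members at least 2-fold apart, those without near copies, members with Tcf/Lef letters in list genes, the naming of host genes and the 8 plotted genes were chosen after seeing the data. Some sites and genes that these rules select are not reported here.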

Additional observations from a re-analysis of the deposited data

How the results depend on the processing

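No paired analysis was possible because each genotype is 1 pooled list, and for the same reason no replicate could be left out. Of 94 values under other settings, 77 stayed within the interval of the reported value, or within 1.5 times a reported count, and 17 did not. Keeping only peaks enriched 4-fold or more, with a q below 0.05 and a p below 1e-05, gave a median WT percentile of 51.7, a median difference (dKO minus WT) of -1.05 points and a median log2 ratio of -0.028. The top 20000 peaks by p gave 2592 members, 90.3% in introns, a median WT percentile of 49.1, a CTCF share of 18.6%, a median log2 ratio of -0.12 and a median difference of 0.974 points, whose sign is opposite to the reported -1.55. Only 56.3% of the reported members were members then. A limit of 10 points left 2644 members by construction, with a median WT percentile of 56.4, a median difference of -0.402 points and a median log2 ratio of 0.040. Ranking by fold enrichment gave a median WT percentile of 51.8. Motif windows of 50 bp to either side held ETS in 22.5%, RUNX in 10.5% and Tcf/Lef in 1.22% of members, with fewer bases searched. For the other shifts the cause was not tested. Overlap of at least 50%, starts over 2000 bp away, protein-coding genes alone and, chosen after seeing the data, leaving out near copies or sites in Gm20388 alone moved none of the values tried beyond these bounds. At low pileup a few fragments shift the percentile, and the pools differ in depth.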

Other observations

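Members were found on all autosomes, from 119 on chromosome 18 to 344 on chromosome 2. Chromosome 11 held the most per Mb, 2.62, and chromosome 3 the fewest, 1.22. Their share of genic distal WT peaks was lowest on chromosome 9 (40.2%) and highest on chromosome 19 (51.2%).

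Of the 2683 genes with a member, 1430 held no other genic distal WT peak, 1029 also held a WT-only and 253 a dKO-higher one. Lef1 held 5 members beside 6 WT-only sites and 1 WT-higher site, and Tcf7 held 1 member and no other genic distal WT peak.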
